A study of Mus musculus with 4 samples.

Results

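Arg1, Nos2, Irg1, Chil3, Mrc1 and Mmp12 are 6 mouse genes often read as signs of how a macrophage is activated, and they were chosen by symbol from the 27998 genes listed for every library. Their levels were followed through 4 gates of myeloid cells and through 4 libraries of single cells, 1 library each labelled Ac, C, aC+C and IgG. The labels do not spell out these 4 names. All 4 carry the same age, 6 to 8 weeks, and no other difference between them is stated. Whether animals were pooled is not stated either. The sample titles speak of immune cells from a tumour and the series title of CD8+ T cells. The cell type tag and the protocol, in contrast, describe goblet cells sorted by mCherry from the DC and Si8 tissue of RedMUC298trTg mice. The gated barcodes did not carry the goblet genes. In the 4 myeloid gates 6 epithelial and goblet cell genes together reached 0 to 5.35 CPM (unique molecular identifiers, UMIs, each standing for 1 captured transcript, scaled to a common total), with Agr2, Tff3 and Krt18 at 0, and in myeloid barcodes outside the gates 0.909 to 82.5 CPM. The 8 myeloid genes, which chose these barcodes, reached 11927 to 27238 CPM in the gates. Whether goblet cells are among the other barcodes is not shown by this.

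Arginase 1, encoded by Arg1, splits arginine into ornithine and urea, and ornithine feeds the making of polyamines and proline. The inducible nitric oxide synthase, encoded by Nos2, uses the same arginine to make nitric oxide and citrulline. In cultured mouse macrophages interleukin-4 and interleukin-13 raise Arg1, Chil3 and Mrc1, interferon-gamma with bacterial products raises Nos2 and Irg1, and the pair Arg1 and Nos2 has long been used to tell these states apart. Irg1, whose current symbol is Acod1, encodes the mitochondrial enzyme that makes itaconate from cis-aconitate. Chil3 encodes Ym1, a secreted chitinase-like protein without chitinase activity, which is also made by monocytes and neutrophil precursors. Mrc1 encodes the mannose receptor CD206, an endocytic C-type lectin, and Mmp12 encodes macrophage elastase, a secreted matrix metalloprotease.

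In GENCODE vM21 on GRCm38 the 6 genes lie on 6 chromosomes. Arg1 is at chr10:24915221-24927484 on the minus strand, Nos2 at chr11:78920787-78960254 on the plus strand and Irg1 at chr14:103046977-103056573 on the plus strand. Chil3 is at chr3:106147554-106167564 on the minus strand, Mrc1 at chr2:14229392-14332057 and Mmp12 at chr9:7344381-7369499, the last pair on the plus strand. The microRNA gene Mir511 lies inside Mrc1 on the same strand, and Mmp1b overlaps Mmp12 on the opposite strand. How reads in these overlaps were counted was not tested.

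The promoters of Chil3, Mrc1 and Mmp12 are shown because the pairs of Chil3 with Mrc1 and with Mmp12 were among those seldom found in 1 barcode, as described further on. Each is the 250 bases before the start given by RefSeq on GRCm38.p6, written 5′ to 3′ on the gene's own strand, with matches to the motifs searched in capitals; for Mmp12 it is the first of 2 starts.
Chil3, chr3:106167565-106167814: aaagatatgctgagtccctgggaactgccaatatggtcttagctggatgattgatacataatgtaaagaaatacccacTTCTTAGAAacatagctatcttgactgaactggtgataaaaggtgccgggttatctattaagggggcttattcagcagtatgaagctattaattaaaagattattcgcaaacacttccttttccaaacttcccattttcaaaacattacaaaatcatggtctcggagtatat
Mrc1, chr2:14229164-14229413: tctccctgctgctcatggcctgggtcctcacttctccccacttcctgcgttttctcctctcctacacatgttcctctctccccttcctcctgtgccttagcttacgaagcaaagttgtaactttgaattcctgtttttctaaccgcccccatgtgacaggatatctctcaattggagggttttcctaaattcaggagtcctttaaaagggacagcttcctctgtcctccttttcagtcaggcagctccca
Mmp12, chr9:7344147-7344396: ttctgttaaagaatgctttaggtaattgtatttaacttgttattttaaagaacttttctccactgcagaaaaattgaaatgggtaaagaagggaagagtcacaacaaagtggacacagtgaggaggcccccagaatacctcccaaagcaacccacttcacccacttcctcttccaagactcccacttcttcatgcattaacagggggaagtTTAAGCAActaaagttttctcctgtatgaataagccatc
Motifs searched on both strands were a pair of GAAA 2 bases apart (interferon response element), TTCNNNGAA (STAT), TTC and GAA 4 bases apart (STAT6), GGG and TTCC 3 bases apart (NF-kB), TGANTCA (AP-1), TTGCNNAA (C/EBP) and ACGTG (hypoxia response element). TATAAA was searched on the gene's own strand only. The Chil3 window holds the STAT pattern from 172 to 164 bases before the start, a pattern found in 7.02% of 32851 mouse promoters of this length. The Mmp12 window holds the C/EBP pattern on the reverse strand from 39 to 32 bases before the start, found in 9.56% of promoters. In the Mrc1 window none of these letters matched. A match describes the sequence and says nothing of a factor being bound.

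A barcode was kept with at least 1000 UMIs and at most 10% of them from mitochondrial genes, which left 4028 barcodes of Ac, 4210 of C, 4081 of aC+C and 3436 of IgG, and 28 barcode sequences occurred in 2 libraries. Barcodes were called myeloid by a summed level of 8 myeloid genes with low T, NK, B, dendritic, neutrophil and fibroblast genes. This gave 1058 barcodes of Ac, 1168 of C, 1355 of aC+C and 522 of IgG, or 26.3%, 27.7%, 33.2% and 15.2% of those kept, with median depths of 11562, 9743, 10495 and 9918 UMIs. No myeloid barcode sequence occurred in 2 libraries. The 4 gates took the barcodes whose level of C1qa, C1qb and C1qc, of Il1b and Cxcl3, of 5 interferon-induced genes, or of Chil3, Hp and Plac8 was at or above its 75th percentile over all myeloid barcodes, the panel highest against that threshold deciding. As background, C1q genes are known from tissue macrophages, and Chil3, Hp and Plac8 from blood monocytes. The other 1201 myeloid barcodes fell in no gate, and 1000 passed 2 or more of the thresholds. A gate is thus a range of a score and not a cell type: between 128 and 338 barcodes lay within 10% of a threshold.

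Arg1 was carried by most myeloid barcodes outside the Chil3 gate. In the C1q-high gate its level was 1895 CPM in Ac, 1669 in C, 2312 in aC+C and 1536 in IgG. In the Il1b/Cxcl3 gate it was 2343, 2332, 2431 and 1504 CPM in the same order, and in the interferon-responding gate 1887, 1280, 2022 and 785 CPM. The Chil3 gate had 1052, 639, 438 and 599 CPM, so that all 4 of its values lay below every value of the C1q-high and Il1b/Cxcl3 gates. Barcodes in no gate, which the gate contrasts below leave out, had Arg1 at 2731, 1537, 2553 and 1150 CPM. This was above the Il1b/Cxcl3 gate in Ac and aC+C and below it in C and IgG. They held 32.6% to 36.5% of the Arg1 UMIs of each library. Among barcodes thinned to 5000 UMIs each, 71.2% to 91.2% of the C1q-high gate but 14.6% to 30% of the Chil3 gate had an Arg1 UMI.

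To compare gates, UMIs were summed per gate and library and each gate was set against the mean of the other 3 with the library as a block, in edgeR's quasi-likelihood test with Benjamini-Hochberg adjustment over 9507 genes. Chil3 and the other panel genes were left out of that test because they chose the barcodes. Over all genes the C1q-high gate called 24% higher and 23.4% lower, the Il1b/Cxcl3 gate 7.6% and 5.67%, the interferon-responding gate 14.4% and 9.5%, and the Chil3 gate 20.4% and 20.6%. Of the 5 genes tested, 2 were higher and 3 lower in the C1q-high gate, 4 were higher in the Il1b/Cxcl3 gate, 2 were higher in the interferon-responding gate and 2 were lower in the Chil3 gate. The gates differ in depth, with median UMIs per barcode of 14908 to 18524 in the C1q-high gate and 7354 to 8597 in the Chil3 gate, and the part of depth in these contrasts was not tested.

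Arg1 was lower in the Chil3 gate by a log2 fold change of -1.39 ± 0.16 (SE over 4 libraries, edgeR adjusted p = 1.7e-07) and higher in the Il1b/Cxcl3 gate by 0.84 ± 0.13 (edgeR adjusted p = 7.5e-05). Both calls held under all 13 alternative settings. The difference in the C1q-high gate was smaller, 0.46 ± 0.14 on the log2 scale (edgeR adjusted p = 0.0069). It missed the threshold without the library block (adjusted p = 0.091) and in DESeq2 (adjusted p = 0.068). The adjusted p over all alternatives ranged from 5.0e-16 to 0.091. Its low end is far below the main edgeR fit, for a reason that was not tested. A count of alternatives passed, here and below, thus gives no measure of the spread among libraries. In the interferon-responding gate the log2 difference was 0.08 ± 0.14 (edgeR adjusted p = 0.72).

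Nos2 was scarce and sat in few barcodes. In the Il1b/Cxcl3 gate its level was 49.3 CPM in Ac, 4.71 in C, 80.5 in aC+C and 14 in IgG. In the interferon-responding gate it was 41.0, 16.4, 41.2 and 5.57 CPM, and in the Chil3 gate 1.18, 8.25 and 31.8 CPM in Ac, C and aC+C with no UMI in IgG. The C1q-high gate had 3.72, 1.76 and 31.0 CPM in the same 3 libraries and no UMI in IgG, where 3 UMIs would be 2.61 CPM. The aC+C library was above the other 3 in every gate but the interferon-responding one, where Ac was level with it. Single barcodes weighed heavily. In the Il1b/Cxcl3 gate the barcode with the most Nos2 UMIs held 33.6% of them in Ac, 66.7% in C, 28.0% in aC+C and 83.3% in IgG.

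Over the 4 libraries Nos2 was higher in the Il1b/Cxcl3 gate by 1.41 ± 0.31 on the log2 scale (edgeR adjusted p = 0.0024) and lower in the C1q-high gate by -1.49 ± 0.35 (edgeR adjusted p = 0.0011). Without the library block neither passed, with adjusted p of 0.18 for the Il1b/Cxcl3 gate and 0.095 for the C1q-high gate. In DESeq2 the Il1b/Cxcl3 gate did not pass either (adjusted p = 0.074). The C library did not share the order of the Il1b/Cxcl3 contrast. There that gate, at 4.71 CPM from 6 UMIs, lay below the interferon-responding gate at 16.4 CPM and the Chil3 gate at 8.25 CPM. Only the C1q-high gate of C, at 1.76 CPM, was lower. Over the alternatives the adjusted p ran from 2.1e-22 to 0.18 in the Il1b/Cxcl3 gate and from 2.5e-21 to 0.095 in the C1q-high gate. The interferon-responding gate gave 0.80 ± 0.31 (edgeR adjusted p = 0.068) and the Chil3 gate -0.72 ± 0.42 (edgeR adjusted p = 0.18). The interferon-responding contrast passed under 5 of 13 alternatives, with adjusted p from 3.0e-07 to 0.59, and the Chil3 contrast under 2, with adjusted p from 8.0e-04 to 0.67.

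Irg1 was higher in the interferon-responding gate and lower in the C1q-high gate. The interferon-responding gate had 71.2 CPM in Ac, 64.1 in C, 125 in aC+C and 59.2 in IgG, and the C1q-high gate 15.1, 17.1, 49.7 and 10.4 CPM, with no overlap between these gates. The gate contrast was 1.07 ± 0.16 on the log2 scale in the interferon-responding gate (edgeR adjusted p = 1.1e-05) and -1.43 ± 0.18 in the C1q-high gate (edgeR adjusted p = 7.2e-07), and both passed under all 13 alternatives. Irg1 in the Il1b/Cxcl3 gate had 50.8, 29.8, 135 and 41.9 CPM in Ac, C, aC+C and IgG, and the contrast of 0.65 ± 0.17 (edgeR adjusted p = 0.012) did not pass under 4 of the 13 alternatives, among them leaving out Ac (adjusted p = 0.076) or aC+C (adjusted p = 0.35), with a range from 3.2e-08 to 0.35. In the Chil3 gate the difference was -0.29 ± 0.21 (edgeR adjusted p = 0.29). Barcodes set aside as neutrophils, 11 in Ac, 17 in C, 18 in aC+C and 8 in IgG, had Irg1 at 3714, 2162, 1519 and 2895 CPM, far above any myeloid gate. Summed neutrophil markers in the 4 gates were 37.4 to 177 CPM, with the granule genes Camp and Ngp at 0, and their part in the Irg1 levels was not tested.

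Mrc1 followed the complement genes. It stood at 497 CPM in Ac, 402 in C, 437 in aC+C and 679 in IgG in the C1q-high gate, against 37.6, 15.7, 55.8 and 32.1 CPM in the Chil3 gate. The Il1b/Cxcl3 gate, at 112 to 213 CPM, and the interferon-responding gate, at 143 to 234 CPM, lay between and overlapped. The log2 contrast was 2.17 ± 0.12 in the C1q-high gate (edgeR adjusted p = 5.6e-13) and -2.54 ± 0.18 in the Chil3 gate (edgeR adjusted p = 9.3e-11), and both held under all 13 alternatives. Mrc1 in the interferon-responding gate, at 0.40 ± 0.13 (edgeR adjusted p = 0.025), passed under 9 of 13 and missed without Ac (adjusted p = 0.070) or C (adjusted p = 0.089), with a range from 3.1e-07 to 0.13. Its difference in the Il1b/Cxcl3 gate was -0.04 ± 0.14 (edgeR adjusted p = 0.92).

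Chil3, itself part of a gate panel, reached 4793 CPM in Ac, 3457 in C, 4788 in aC+C and 1844 in IgG in the gate named for it, and 16.5 to 77.1 CPM in the C1q-high gate. To give it a test, the gates were drawn again with Hp, the haemoglobin-binding haptoglobin, and Plac8 alone. Chil3 was then higher in that gate by 2.99 ± 0.14 on the log2 scale (edgeR adjusted p = 1.3e-14), lower in the C1q-high gate by -4.12 ± 0.20 (edgeR adjusted p = 2.9e-14), and higher in the Il1b/Cxcl3 gate by 0.77 ± 0.15 (edgeR adjusted p = 5.1e-04). Hp and Plac8 had been grouped with Chil3 from earlier results of these data, so that the direction is no independent support.

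Mmp12 depended on a handful of barcodes. Its level in the Il1b/Cxcl3 gate was 604 CPM in Ac, 69.1 in C, 406 in aC+C and 321 in IgG. In the C1q-high gate it was 42.5, 71.0, 85.9 and 15.6 CPM, and in the interferon-responding gate 205, 213, 168 and 57.1 CPM. The Chil3 gate had 180, 10.7 and 325 CPM in Ac, C and aC+C and no UMI in IgG, where 3 UMIs would be 8.03 CPM. Barcodes in no gate were the richest single source, holding 51.4% to 58.5% of the Mmp12 UMIs of each library.

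The Chil3 gate turned out to hold 17 of 591 barcodes with under 1000 CPM of Hp and Plac8 together, which entered it mainly through Chil3. These 17 held 98.3% of the gate's Mmp12 UMIs, 64.1% of its Mrc1, 33.9% of its Arg1 and 24.6% of its Chil3 UMIs, and 5 of them had 10 or more Mmp12 UMIs. Their Mmp12 level was 6588 CPM, against 3.39 CPM in the other 574 barcodes, and their Arg1 level 7038 CPM, against 414 CPM. These sums rest on few barcodes: 15 of the 17 had an Arg1 UMI and 10 an Mmp12 UMI, and the single one from IgG had neither. All 17 are high in Chil3 by the choice of the gate. With all barcodes the Mmp12 contrast of the Chil3 gate was -0.13 ± 0.44 on the log2 scale (edgeR adjusted p = 0.84). Without the 17, an alternative chosen after seeing the data, the contrast was -5.51 ± 0.73 (edgeR adjusted p = 1.4e-06). The other 574 barcodes held only 16 Mmp12 UMIs, in 9 barcodes and none in IgG. With the gates drawn on Hp and Plac8 the contrast was -5.15 ± 0.71 (edgeR adjusted p = 2.0e-06). That gate also selects against barcodes low in Hp and Plac8, so this value is no separate check. The adjusted p over all alternatives ranged from 1.4e-06 to 0.98.

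The same 17 barcodes moved the Mmp12 contrasts of the other gates, since each gate is read against the rest. The C1q-high gate was -1.88 ± 0.44 with them (edgeR adjusted p = 0.0011) and -0.08 ± 0.58 without them (edgeR adjusted p = 0.93). The interferon-responding gate was 0.32 ± 0.39 with them (edgeR adjusted p = 0.61) and 2.08 ± 0.39 without them (edgeR adjusted p = 2.7e-04). Higher Mmp12 in the Il1b/Cxcl3 gate was called both ways, at 1.70 ± 0.37 (edgeR adjusted p = 0.0026) with them and 3.51 ± 0.36 (edgeR adjusted p = 1.6e-07) without them. It was not called in DESeq2 (adjusted p = 0.071) or without Ac (adjusted p = 0.091). The range was 1.3e-113 to 0.091, its low end far below the main edgeR fit for a reason that was not tested. In C the Mmp12 level of this gate, 69.1 CPM, lay below the interferon-responding gate at 213 CPM and the C1q-high gate at 71.0 CPM. Only the Chil3 gate of C, at 10.7 CPM, was lower.

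**Figure D1:**
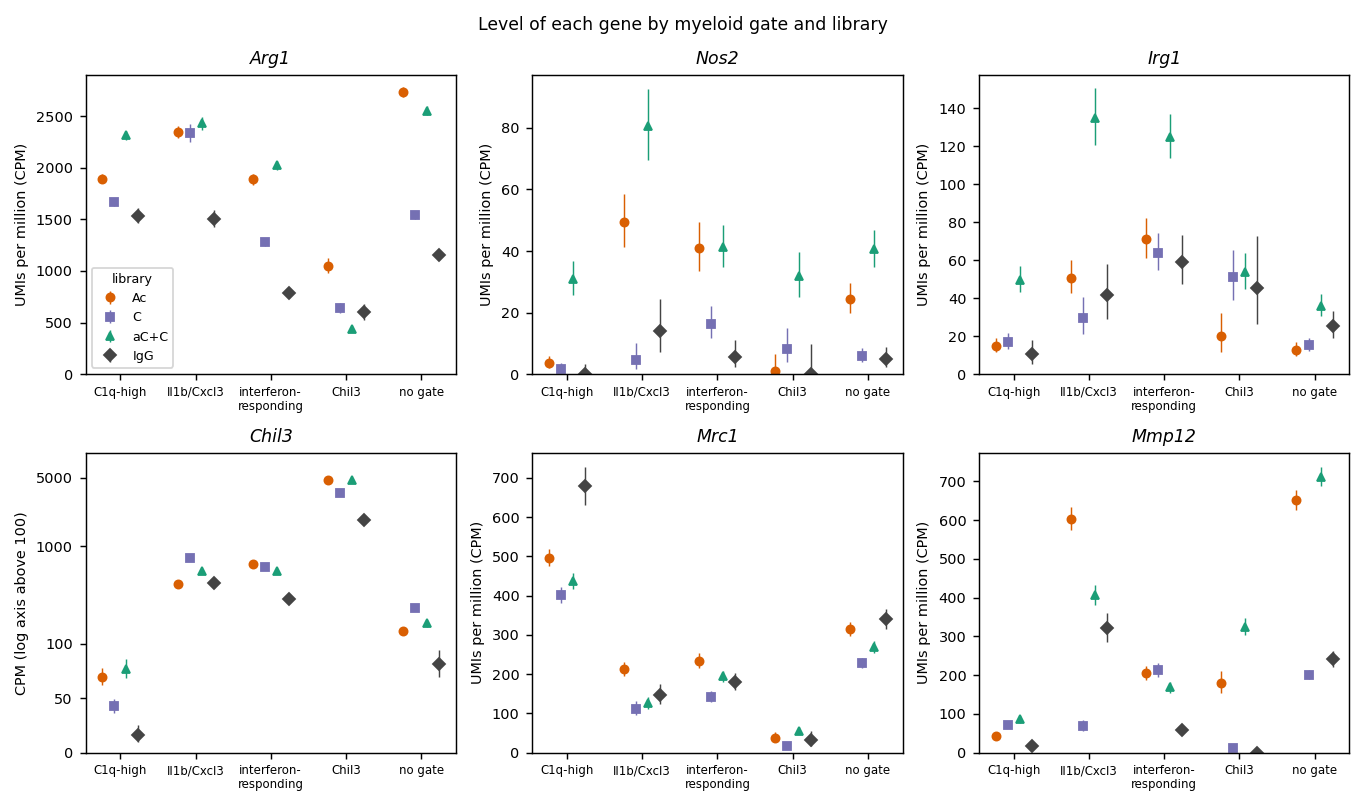
Level of each of the 6 genes in CPM (vertical axes; a log axis above 100 for Chil3) by myeloid gate (horizontal axes), with 1 point per library and bars for the exact 95% Poisson interval of its count. Mrc1 peaks in the C1q-high gate at 402 to 679 CPM and Arg1 is lowest in the Chil3 gate at 438 to 1052 CPM, while Nos2 and Mmp12 scatter widely among libraries.

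**Figure D2:**
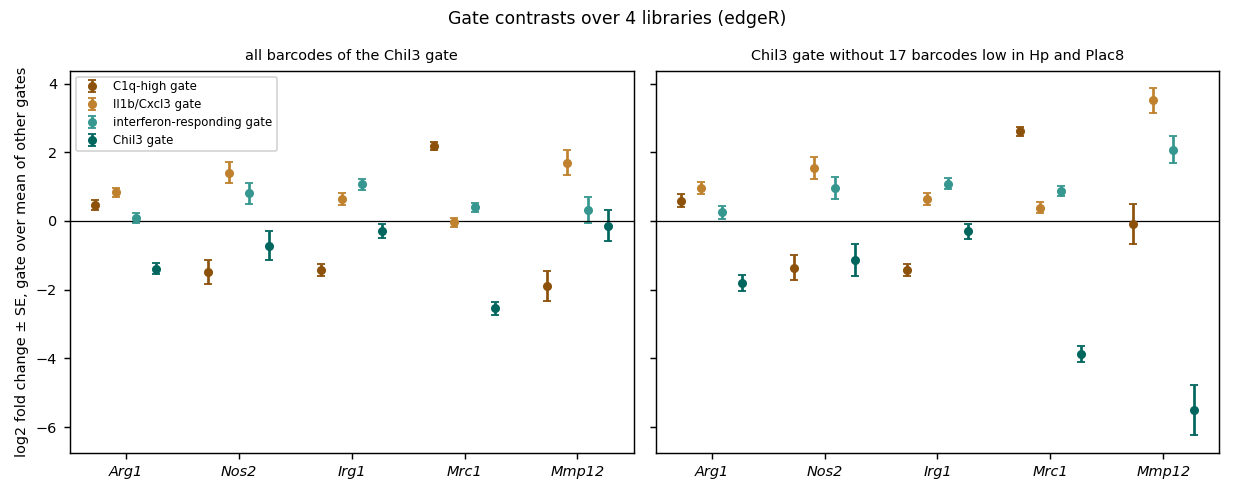
Log2 fold change of each gate over the mean of the other gates (vertical axis, with SE bars from edgeR) for the 5 genes tested (horizontal axis), over 4 libraries. The left panel uses all barcodes and the right panel leaves 17 barcodes low in Hp and Plac8 out of the Chil3 gate, which takes Mmp12 in that gate to -5.51 from -0.13.

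The wider gene lists were chosen with earlier results known, and their counts stand beside the shares of all genes called. These shares were 24% higher and 23.4% lower in the C1q-high gate, and 7.6% and 5.67% in the Il1b/Cxcl3 gate. In the Chil3 gate they were 20.4% and 20.6%. Of 17 tested genes of alternative activation, 10 were higher and 4 lower in the C1q-high gate (median log2 fold change 0.51, against 0.03 over all genes), and 2 were higher and 11 lower in the Chil3 gate (median -1.23, against -0.04). In the Il1b/Cxcl3 gate 7 were higher and 4 lower (median 0.16, against 0.01). In the C1q-high gate the folate receptor gene Folr2 at 4.03 ± 0.21, the chemokine Ccl8 at 4.16 ± 0.27 and the scavenger receptor Stab1 at 1.67 ± 0.12 were higher, whereas the transglutaminase Tgm2 was lower at -0.81 ± 0.09. Of 16 tested genes of inflammatory activation, 10 were higher and none lower in the Il1b/Cxcl3 gate (median 0.74, against 0.01), and 2 were higher and 9 lower in the C1q-high gate (median -0.58, against 0.03). In the Chil3 gate 1 was higher and 9 lower (median -0.58, against -0.04), the same direction as the alternative list there. In the C1q-high gate the chemokine Cxcl10 was lower at -2.04 ± 0.17, the cytokine signalling inhibitor Socs3 at -0.65 ± 0.07 and the formyl peptide receptor Fpr2 at -1.72 ± 0.20, while the NAD-consuming enzyme Cd38, counted as inflammatory, was higher at 1.83 ± 0.17.

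Genes of arginine use went both ways within a gate. Of 13 tested genes of arginine and polyamine metabolism, 4 were higher and 7 lower in the C1q-high gate (median -0.13, against 0.03), and 5 were higher and 3 lower in the Chil3 gate (median 0.16, against -0.04), where 20.4% of all genes were higher and 20.6% lower. The 4 higher and the 3 lower are near those shares. Gch1, whose enzyme makes the tetrahydrobiopterin that nitric oxide synthase needs, was at 30.0 CPM in Ac, 33.0 in C, 38.9 in aC+C and 33.0 in IgG in the C1q-high gate, against 134, 136, 139 and 143 CPM in the interferon-responding gate. Its C1q-high contrast was -1.75 ± 0.08 on the log2 scale (edgeR adjusted p = 2.9e-14). Ass1, which rebuilds arginine from citrulline, was lower there too at -2.09 ± 0.11 (edgeR adjusted p = 3.6e-13). Srm (spermidine synthase) at 0.70 ± 0.12, Oat (ornithine aminotransferase) at 0.56 ± 0.09 and Odc1 (ornithine decarboxylase) at 0.47 ± 0.08 were higher in the C1q-high gate. The other arginase gene, Arg2, was lower in the C1q-high gate at -1.02 ± 0.20 (edgeR adjusted p = 1.5e-04) and higher in the Il1b/Cxcl3 gate at 1.37 ± 0.18 (edgeR adjusted p = 8.3e-06). Odc1 and Arg2 were singled out after their values were seen. The genes named are only some of the 4 higher and 7 lower in the C1q-high gate. They do not show how each branch of arginine use moved as a whole.

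Receptors, factors and partners moved less evenly. Of 15 tested signal receptors, 4 were higher, near the share of all genes, and 6 lower in the C1q-high gate (median 0.04, against 0.03), among them the interleukin-13 receptor chain Il13ra1 at -0.95 ± 0.09, the common beta chain Csf2rb at -0.59 ± 0.06, the bacterial lipoprotein receptor Tlr2 at -0.61 ± 0.07 and the TGF-beta receptor Tgfbr2 at 0.81 ± 0.10. Of 18 transcription factors, 4 were higher, near the share of all genes, and 11 lower there (median -0.38, against 0.03). Among them were the C/EBP-beta gene Cebpb at -1.42 ± 0.06, Irf5 at -0.72 ± 0.06, Nfkb1 at -0.81 ± 0.07 and Maf at 1.31 ± 0.09. Cebpb was at 3305 CPM in Ac, 3112 in C, 3444 in aC+C and 2582 in IgG in the Chil3 gate, against 995, 840, 1045 and 747 CPM in the C1q-high gate. Of 12 partners of itaconate and the mitochondrion, 4 were higher and 2 lower in the C1q-high gate (median 0.14, against 0.03). These counts are near the shares of all genes there, 24% higher and 23.4% lower. The dicarboxylate carrier Slc25a10 was at 1.63 ± 0.17, the isocitrate dehydrogenase Idh2 at 0.67 ± 0.09 and the stress factor Atf3 at -0.71 ± 0.07.

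Of 13 tested hypoxia response genes, 10 were higher and none lower in the Il1b/Cxcl3 gate (median 0.57, against 0.01). There 7.6% of all genes were higher and 5.67% lower. The glucose transporter Slc2a1 was at 0.71 ± 0.07, the angiogenic factor Vegfa at 1.11 ± 0.11, the lipid droplet gene Hilpda at 1.25 ± 0.13 and the mitophagy receptor Bnip3 at 0.65 ± 0.11. Vegfa was at 646 CPM in Ac, 530 in C, 569 in aC+C and 655 in IgG in that gate, against 287, 216, 323 and 226 CPM in the C1q-high gate. Of 10 tested matrix proteases and inhibitors, 4 were higher and 4 lower in the C1q-high gate (median -0.14, against 0.03). In that gate 24% of all genes were higher and 23.4% lower. The inhibitor Timp2 was at 2.35 ± 0.08, the gelatinase Mmp2 at 3.28 ± 0.34, the collagenase Mmp8 at -2.55 ± 0.21 and the urokinase receptor Plaur at -1.09 ± 0.08. Of 8 tested C-type lectins and galectins, 4 were higher and 3 lower in the same gate (median -0.09, against 0.03). Among them were Clec4e at -2.46 ± 0.14, Clec4n at 0.86 ± 0.10, Clec4a2 at 0.52 ± 0.07 and Lgals3 at -0.53 ± 0.08. All members named from these lists passed edgeR's test at an adjusted p under 0.05. The 4 other chitinase-like genes listed, Chil1, Chil4, Chia1 and Chit1, were too low to be tested.

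The most extreme contrasts past the threshold were read outside the 6 members and the gate panels. In the C1q-high gate they were the hyaluronan receptor Lyve1 at 6.82 ± 0.45, Fcrls at 5.04 ± 0.16 and the TAM receptor ligand Gas6 at 4.80 ± 0.23. At the low end were Cd177, Smim5 and Dmkn at -6.23 to -5.92. Those of the Il1b/Cxcl3 gate were the chemokine Ccl17 at 3.77 ± 0.30, the lectin Cd209a at 3.55 ± 0.41 and G0s2 at 3.0 ± 0.44, and Retnla, Ch25h and Ddx4 at -5.94 to -2.50. Of these, Ccl17 and Retnla, which went opposite ways, belong to the alternative activation list, and Cd209a to the C-type lectins. In the interferon-responding gate Ifit3b, Ifit1bl1 and Cmpk2 reached 4.58 to 5.36, against -2.94 to -2.52 for Pabpc1l, Slc26a6 and Hpgd. In the Chil3 gate Serpinb10, Serpinb2 and Ace reached 4.98 to 6.59, against -7.78 to -6.89 for Fcrls, Tlr12 and Scamp5. All of these passed edgeR's test.

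Arg1 and Nos2 did not exclude each other. In barcodes thinned to 5000 UMIs, 39 of 945 in Ac, 12 of 1010 in C, 106 of 1206 in aC+C and 4 of 430 in IgG had a Nos2 UMI. Of these, 36 in Ac, 11 in C, 96 in aC+C and 4 in IgG had an Arg1 UMI as well. If both genes had been detected independently, 29.2, 8.13, 68.8 and 2.20 such barcodes would have been seen, so that the count observed was higher in all 4 libraries and came to 147 in all against 108. Only 14 of 161 Nos2-positive barcodes lacked Arg1.

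The odds of an Arg1 UMI were higher in barcodes with Nos2 than in those without, by an odds ratio of 3.64 in Ac, 3.71 in C, 5.53 in aC+C and 7.46 in IgG. The geometric mean was 4.85, above 1 in 4 of 4 libraries (exact two-sided sign-flip test over libraries, p = 0.13, the smallest that 4 libraries allow). It was 3.58 without barcodes over 200 CPM of neutrophil markers, a setting chosen after seeing the data. With the barcodes of highest doublet score left out the odds ratio was 5.31. This removed only 5 myeloid barcodes of Ac, 18 of C, 10 of aC+C and 7 of IgG, and the part of doublets was not tested further. Asking for 2 UMIs of each gene lowered the odds ratio to 2.64, with 60 barcodes positive for both against 44.2 expected.

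Within 3 of the 4 gates the odds ratio was nearer to 1, a difference that was not tested. The odds ratio was 2.07 in the Il1b/Cxcl3 gate, where 41 of 45 Nos2-positive barcodes had Arg1 against 34.1 expected, and 2.26 in the interferon-responding gate, where 37 of 44 had it against 31.9. In the C1q-high gate all 23 Nos2-positive barcodes had Arg1, against 20.8 expected. The odds ratio there was 1.40 over 3 libraries and below 1 in 2 of them, values that come from the 0.5 added to each cell of the 2 by 2 counts. In the Chil3 gate 5 of 7 had Arg1 against 1.16 expected, and the odds ratio was 9.43 over 2 libraries. The value of C there, 7.71, comes from 1 Nos2-positive barcode and the 0.5 added. Barcodes in no gate gave 4.11, with 41 of 42 against 31.4.

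At full depth, the share of barcodes with an Arg1 UMI was 94.9% in Ac, 94.4% in C, 93.6% in aC+C and 100% in IgG among those with Nos2, against 76.5%, 70.1%, 61.7% and 58.9% among those without. The summed Arg1 level was 3511, 2483, 3588 and 3810 CPM with Nos2, against 2002, 1476, 1773 and 1067 CPM without, higher in 4 of 4 libraries by a geometric mean of 2.15-fold (exact sign-flip test, p = 0.13, the smallest possible). Barcodes with Nos2 were also deeper, with medians of 16338, 12422, 14097 and 17904 UMIs against 11188, 9596, 10180 and 9836 UMIs. Within bins of total UMIs the full-depth co-detection odds ratio was 3.27 for Ac, 4.95 for C and 6.61 for the aC+C library and could not be computed for IgG, with a geometric mean of 4.75, near the 4.85 of thinned barcodes. The Arg1 levels themselves were not compared within bins of depth. Irg1 was higher with Nos2 as well, by 2.64-fold.

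Free RNA was measured beside these shares. In barcodes of 1 to 50 UMIs, which hold mostly free RNA, Arg1 was at 444 CPM in Ac, 326 in C, 487 in aC+C and 161 in IgG, and Nos2 at 5.58, 3.65, 20.5 and 2.93 CPM. In T cell barcodes thinned to the same depth, which should lack both genes, 1.89%, 3.15%, 3.33% and 1.30% had an Arg1 UMI and 0.316% of Ac, 0.0832% of aC+C and 0.206% of IgG a Nos2 UMI. In C there were 0 of 1080, which allows a share of up to 0.278%. These barcodes had median depths before thinning of 8556, 8126, 8990 and 10709 UMIs. Over all myeloid barcodes the Nos2 shares were 4.13%, 1.19%, 8.79% and 0.930%. The Nos2 shares of myeloid barcodes lay above the T cell shares in all 4 libraries.

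**Figure D3:**
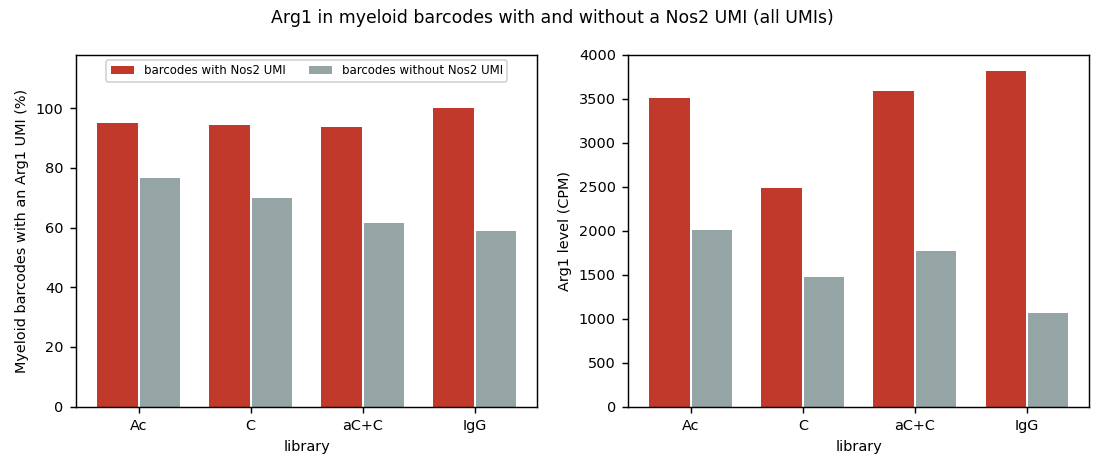
Share of myeloid barcodes with an Arg1 UMI (left, %) and summed Arg1 level (right, CPM), as bars for barcodes with and without a Nos2 UMI in each library, with no error bars. Barcodes with Nos2 had Arg1 levels of 2483 to 3810 CPM, against 1067 to 2002 CPM in barcodes without it.

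Among the 7025 genes found in enough barcodes to be ranked, Arg1 stood at place 12 by its odds ratio with Nos2, where the median gene had 1.03. The syndecan gene Sdc4 at 6.94, the mitophagy receptor Bnip3 at 6.70 and the scavenger receptor Scarf1 at 6.07 came first, followed by Irg1 at 5.71 and Mmp12 at 5.61. With Arg1 the first were Bcl2a1b at 13.1, an anti-apoptotic gene, the cationic amino acid transporter Slc7a2 at 11.7, which brings in arginine, and the cytokine Mif at 11.3. These ranks are descriptions of the same barcodes.

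Co-detection over the 15 pairs of the 6 genes ran from pairs often found together to pairs seldom found together. Arg1 with Mmp12 gave a geometric mean odds ratio of 6.51 (range over libraries 2.30 to 17.2), Nos2 with Irg1 5.71 (4.51 to 8.82), Nos2 with Mmp12 5.61 (3.33 to 9.22) and Arg1 with Mrc1 4.12 (2.03 to 7.61). At the other end lay Chil3 with Mrc1 at 0.180 (0.163 to 0.198), with Mmp12 at 0.384 (0.294 to 0.451) and with Arg1 at 0.388 (0.213 to 0.654). Irg1 with Mrc1 was also below 1 in every library, at 0.495 (0.334 to 0.603). Not all Chil3 pairs were seldom found together: Irg1 with Chil3 was above 1 in every library, at 1.44 (1.04 to 2.12). Arg1 with Nos2 was above 1 in every library too. Nos2 with Mrc1 at 1.36 and with Chil3 at 0.673 had libraries on both sides of 1. With 4 libraries no pair can give an exact sign-flip p under 0.13, before any adjustment over the 15.

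**Figure D4:**
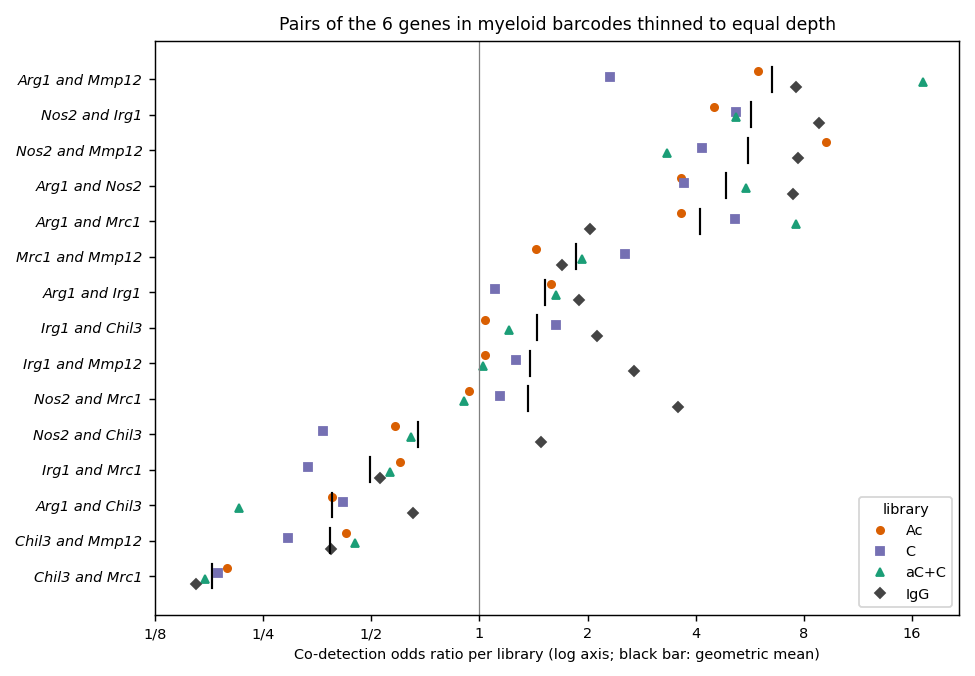
Odds ratio of co-detection (log axis) for the 15 pairs of the 6 genes in barcodes thinned to 5000 UMIs, by library, with the geometric mean. Chil3 with Mrc1 lies lowest at 0.180 and Arg1 with Mmp12 highest at 6.51, and Arg1 with Nos2 lies above 1 in all 4 libraries.

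Over all myeloid barcodes the spread between libraries was wider for Nos2, Chil3, Irg1 and Mmp12 than for Arg1 and Mrc1. Each treatment is 1 library, so library and treatment cannot be told apart, no test was possible, and the intervals of the ratios (exact conditional binomial, 95%) cover counting error only. Nos2 was at 24.4 CPM in Ac, 6.85 in C, 42.7 in aC+C and 5.15 in IgG, from 353, 98, 732 and 31 UMIs. Its ratio to IgG was 4.75 (3.28 to 7.09) in Ac, 1.33 (0.880 to 2.06) in C and 8.29 (5.79 to 12.3) in aC+C. Few barcodes carried it: 50% of its UMIs lay in 6 barcodes of Ac, 4 of C, 20 of aC+C and 3 of IgG, and without the top barcode of each library the ratios were 6.12, 1.52 and 11.3.

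Chil3 was at 535 CPM in Ac, 571 in C, 932 in aC+C and 277 in IgG. Its ratio to IgG was 1.93 (1.83 to 2.04) in Ac, 2.06 (1.96 to 2.18) in C and 3.37 (3.20 to 3.55) in aC+C. The share of myeloid barcodes in the Chil3 gate was 9.55% in Ac, 14% in C, 21.0% in aC+C and 8.05% in IgG, and a single barcode held 10.7% of the Chil3 UMIs of aC+C. Chil3 helps to define that gate, so these shares are not independent of its level.

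Mmp12 was at 353 CPM in Ac, 139 in C, 347 in aC+C and 151 in IgG, a ratio to IgG of 2.34 (2.18 to 2.52), 0.925 (0.855 to 1.00) and 2.30 (2.15 to 2.47) in the first 3. Of its UMIs, 50% lay in 9 barcodes of Ac, 11 of C, 14 of aC+C and 4 of IgG. Irg1 was at 31.5, 29.4, 74.7 and 34.2 CPM in Ac, C, aC+C and IgG, so that aC+C stood alone, at 2.18 times IgG (1.88 to 2.54).

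Arg1 and Mrc1 differed less. Arg1 was at 2159 CPM in Ac, 1520 in C, 2066 in aC+C and 1153 in IgG, with ratios to IgG of 1.87 (1.82 to 1.92), 1.32 (1.28 to 1.35) and 1.79 (1.75 to 1.84). Mrc1 was at 319, 232, 244 and 320 CPM, with ratios of 0.998 (0.946 to 1.05) in Ac, 0.725 (0.685 to 0.767) in C and 0.762 (0.722 to 0.805) in aC+C.

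At least 2-fold higher levels than in IgG were found for 2 of the 6 genes in Ac (Nos2 and Mmp12), where 0.833% of genes with at least 100 UMIs passed, for 1 in C (Chil3), where 2.04% passed, and for 4 in aC+C (Nos2, Irg1, Chil3 and Mmp12), where 1.58% passed. None of the 6 was at least 2-fold lower in these comparisons, against backgrounds of 0.81%, 0.478% and 1.03%. Some of these calls lay close to 2-fold: Chil3 in C was 1.93 with at most 5% mitochondrial UMIs, and without barcodes over 200 CPM of neutrophil markers Mmp12 was 1.78 in Ac and 1.94 in aC+C. The 3 comparisons share the IgG library. Set against the single libraries, aC+C was at least 2-fold higher in Irg1 than Ac, at 2.37 (2.13 to 2.64), where 0.668% of genes passed. Against C it was at least 2-fold higher in Nos2 at 6.23 (5.04 to 7.78), in Irg1 at 2.54 (2.28 to 2.85) and in Mmp12 at 2.49 (2.37 to 2.62), where 0.516% passed; Mmp12 was 1.93 without the barcodes high in neutrophil markers.

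Within gates the differences varied. In the interferon-responding gate the Arg1 ratio to IgG was 2.40 (2.25 to 2.56) in Ac, 1.63 (1.52 to 1.74) in C and 2.57 (2.42 to 2.74) in aC+C. In the Chil3 gate it was 1.76 (1.51 to 2.04), 1.07 (0.917 to 1.24) and 0.730 (0.631 to 0.847). Without the barcode richest in Arg1 in each library these were 2.65 (2.18 to 3.26), 1.73 (1.41 to 2.12) and 1.05 (0.865 to 1.29). Leaving that barcode out took the Arg1 UMIs of the gate from 224 to 116 in IgG and from 1059 to 812 in aC+C. Without the 17 barcodes low in Hp and Plac8 the Arg1 levels of the Chil3 gate were 804 CPM in Ac, 508 in C, 202 in aC+C and 603 in IgG, with aC+C again below IgG. The place of aC+C against IgG thus depended on which barcodes were left out. In the C1q-high gate Mrc1 was lower than in IgG in all 3, at 0.732 (0.674 to 0.796), 0.592 (0.543 to 0.646) and 0.644 (0.592 to 0.701). There Nos2 had 129 UMIs in aC+C and none in IgG, which makes it 11.9-fold higher if 3 UMIs are set as the floor of the IgG sum. The exact lower bound of this ratio was 9.52, and 7.55 without the top barcode of each library. Irg1 in that gate was 4.76-fold higher in aC+C (2.67 to 9.37).

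**Figure D5:**
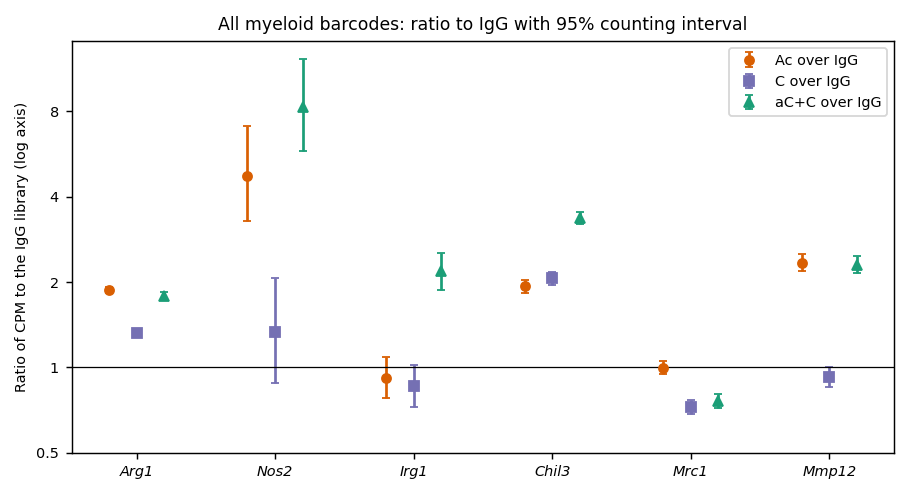
Ratio of each gene's CPM to the IgG library (log axis) in Ac, C and aC+C over all myeloid barcodes, with exact 95% intervals for counting error only. Nos2 in aC+C is highest at 8.29 and Mrc1 in C lowest at 0.725.

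Over the 16 gate and library sums, the genes whose log2(CPM + 10) followed each member most closely among 8491 genes were Fth1, Gapdh and Basp1 for Arg1 (Pearson r 0.93, 0.93 and 0.92), Grina, Tcf7l2 and Inhba for Nos2 (0.86, 0.76 and 0.75) and Txn1, Gbp2 and Cxcl10 for Irg1 (0.94, 0.84 and 0.84). They were the panel gene Hp with Rhov and Vcan for Chil3 (0.98, 0.97 and 0.96) and Pdlim4, Tubb2a and Lman1 for Mrc1 (0.96 each). For Mmp12 they were Tmem39a, Arl5a and Rc3h2 (0.82, 0.80 and 0.75). Among the members, Nos2 followed Irg1 (0.80) and Mmp12 (0.73), Chil3 ran against Mrc1 (-0.93), and Arg1 with Nos2 gave 0.36. These values are descriptions, since the sums share libraries and gates.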

How the data were processed

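Single-cell RNA was captured on the 10x platform in 4 mouse libraries, 1 per group. The deposited values are raw UMI counts per gene and barcode, unfiltered and not normalized by the authors. The submitters' processing notes name Cell Ranger 2.1.1 and mm10, and the matrix header gives software version 3.0.2. Total counts were 65973242 in Ac, 75665201 in C, 75067320 in aC+C and 61519049 in IgG.

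Barcodes with at least 1000 UMIs and at most 10% mitochondrial UMIs were kept. Myeloid barcodes had at least 2000 CPM of 8 myeloid genes and at most 500 CPM of T, 1000 of NK, 500 of B, 1000 of fibroblast, 300 of dendritic and 5000 of neutrophil genes. Gates used the 75th percentile. Doublets were taken as the barcodes of highest Scrublet score (scanpy 1.11.5), up to the number expected at 0.8% per 1000 barcodes. They were kept, and left out as an alternative. Gate sums of at least 20 barcodes were tested in R 4.3.3 with edgeR 4.0.16 (quasi-likelihood, TMM, 9 residual degrees of freedom) and, as an alternative, DESeq2 1.42.0. The edgeR step was tested on simulated counts. Co-detection used barcodes thinned to 5000 UMIs, which left out 113 of Ac, 158 of C, 149 of aC+C and 92 of IgG. Libraries were compared by CPM ratios with exact 95% intervals for counting error, and a count of 0 was set to 3 counts.

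The genes, lists and gates were chosen with earlier results of these data known, and the gate thresholds, class limits and thinning depth after seeing the data. Named genes were the 6 members, the 3 most correlated genes of each, the 3 highest and 3 lowest genes past the threshold in each gate contrast, and from each list up to 4 genes with the lowest adjusted p in the contrast with most calls. Exceptions are marked, and a gene that the rule names is not reported here. Alternatives changed the filter, block, tool, depth and mitochondrial limits, gate thresholds and panel, doublets, free RNA and each library in turn. Python used numpy 2.4.6, pandas 2.3.3 and scipy 1.17.1.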

Additional observations from a re-analysis of the deposited data

Results flagged for a closer look

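The C library differed from IgG in opposite directions in different gates for Nos2 and Mmp12. Each gate has 1 library per group, so the difference between gates was not tested. Nos2 in C over IgG was 2.94 in the interferon-responding gate (1.37 to 7.24, 44 against 8 UMIs) and 0.338 in the Il1b/Cxcl3 gate (0.104 to 0.972, 6 against 12 UMIs). There the top barcode held 66.7% of the Nos2 UMIs in C and 83.3% in IgG. Without the top barcode of each library Nos2 was 2.38 (0.879 to 8.04) in the interferon-responding gate and 0.664 (0.0481 to 9.16, 2 against 2 UMIs) in the Il1b/Cxcl3 gate, both intervals including 1. Mmp12 in C over IgG was 4.54 in the C1q-high gate (2.82 to 7.77) and 3.73 in the interferon-responding gate (2.95 to 4.76), but 0.215 in the Il1b/Cxcl3 gate (0.167 to 0.275). In the Il1b/Cxcl3 gate 1 barcode held 56.9% of the Mmp12 UMIs of IgG. Without the top barcodes the Mmp12 ratios were 11.2 (5.07 to 30.8) in the C1q-high gate, 11.1 (6.74 to 19.6) in the interferon-responding gate and 0.453 (0.336 to 0.608) in the Il1b/Cxcl3 gate.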

How the results depend on the processing

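No paired comparison of the groups was possible because each group has 1 library and the labels give no replicate numbers. The gates were compared within libraries, with the library as a block. Of 260 alternative values of the members' gate contrasts, 217 kept direction and side of the threshold, 18 lost the call, 14 gained it and 11 changed sign; of 180 library ratios 150 moved within their interval and 30 beyond it. The sign changes were Mrc1 in the Il1b/Cxcl3 gate (-0.04; -0.23 to 0.20 with 1 library left out, highest without aC+C, 0.28 at 5% mitochondrial UMIs, 0.45 with the Hp and Plac8 panel, 0.38 without barcodes low in Hp and Plac8), Arg1 (-0.068 without aC+C to 0.25 without IgG) and Mmp12 (-0.13 without C to 0.80 without aC+C) in the interferon-responding gate, and in the Chil3 gate Irg1 (-0.60 without C to 0.18 without aC+C) and Mmp12 (0.062 without the library block, -1.15 without aC+C to 0.37 without C, 0.02 without IgG, 0.49 with thresholds raised 1.5 times). With raised thresholds 1481 genes were higher in the C1q-high gate (2282 before) and 595 lower in the interferon-responding gate (903 before; 549 in DESeq2), and median gate shares were 5.85% for C1q-high and 11.3% for Il1b/Cxcl3. Leaving out 1 library gave 466 to 615 genes higher in the Il1b/Cxcl3 gate (466 without Ac, 723 with all), 489 to 647 lower in the interferon-responding gate (531 without Ac, 489 without C, 501 without aC+C), and 1295 to 1958 higher and 1280 to 1928 lower in the Chil3 gate (1295 and 1280 without aC+C). Genes at least 2-fold lower in C than IgG were 67 with free RNA subtracted (43 before); in aC+C than Ac 49 (16 before); in aC+C than C 227, against 82 at 5% mitochondrial UMIs, 190 without doublets and 124 before. Genes at least 2-fold higher in aC+C than IgG were 88 without doublets (143 before). The Arg1 and Nos2 odds ratio was 2.64 at 2 UMIs and 1.40, 2.07, 2.26 and 9.43 within the C1q-high, Il1b/Cxcl3, interferon-responding and Chil3 gates (4.85 over all). Median Chil3 in its gate was 2296 CPM with the Hp and Plac8 panel (4123 before). Except where fewer libraries or barcodes entered, the cause was not tested. Depth limits Nos2 most, with 31 to 732 UMIs per library.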
